A study of Mus musculus with 12 samples.

Results

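The genes described here encode the machinery that drives RNA polymerase II through a gene body, together with the Mediator complex and the BET proteins that act where transcription begins. They were chosen by gene name, and all 42 were found among the 40077 genes of the cell table and among the 34508 genes of the tumor table. The 42 genes fall into 29 for the polymerase, its elongation factors and BET proteins and 13 for Mediator subunits.

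The study treated the mouse prostate cancer line Myc-CaP with YJ1206, an orally available molecule that directs the kinases CDK12 and CDK13 to degradation. Cultured cells received YJ1206 at 1 μM for 24 hours or DMSO, with 3 libraries per group. The labels and methods give no duration for DMSO. Subcutaneous Myc-CaP tumors came from male FVB mice that received by mouth either the vehicle (PEG400, Cremophor EL and PBS) or YJ1206 at 100 mg/kg, 3 times per week, again with 3 libraries per group. All 4 groups share the Myc transgene of the line, which is a single line, and the tumors also hold cells of the host.

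RNA polymerase II starts a transcript with the help of Mediator, a bridge between activators and the polymerase, and then pauses under the control of the factors DSIF and NELF. The kinase P-TEFb, held inactive in the 7SK particle and delivered by BET proteins and the super elongation complex, releases the polymerase, after which CDK12 and CDK13 phosphorylate its tail along the gene body. SPT6, FACT, the PAF complex, TFIIS and SETD2 then accompany the polymerase through chromatin.

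Total estimated counts ranged from 13936902 to 18519926 per cell library and from 15391544 to 26928365 per tumor library. The methods state for all data that replicates were biological and independent, but no source ties each library to a culture or an animal, so p-values measure the spread between these libraries only, and all limits based on counts cover counting error only. The DMSO and YJ1206 cell libraries carry identifiers from separate series, so library series and treatment cannot be told apart in the cells. Cell samples are labelled as polyA RNA and tumor samples as total RNA, although the protocol given for both is depletion of ribosomal RNA, and any such difference cannot be told apart from the material where cells and tumors are compared. Of the epithelial markers, Epcam was at or under 3 counts in every cell library, and the luminal keratin Krt8 stood at 2.88 TPM (a transcript level per length and depth) with DMSO and 25.1 TPM with YJ1206. In the tumors, the third library of each group lay between the other two for 91.8% of the 4204 genes that differed over 1.2-fold between vehicle libraries 1 and 2, and for 86.3% of 2482 such genes with YJ1206, against 70.3% and 66.5% in the cells. It did so for all 10 members that differed by this much in the vehicle tumors and for all 3 in the YJ1206 tumors. The summed TPM of 6 skeletal muscle markers was 721, 31.5 and 437 in the vehicle tumors and 15.8, 15.2 and 17.4 in the YJ1206 tumors. Whether library 3 of a tumor group is independent of libraries 1 and 2 is not given, and errors and p-values in the tumors treat it as a library of its own. Tumor results are therefore also given without library 3.

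A start region is shown for each of 3 members, because Brd2 and Supt5 rose the most in the cells among well-measured members and Med14 fell the most in the tumors. RefSeq windows (GRCm38.p6), which run from 250 bases before to 50 bases after a start, were matched for 34 of the 42 members. The printed part of each is what precedes the start and lies outside annotated exons, on the minus strand, at chr17:34122635-34122821 for Brd2, chr7:28338747-28338969 for Supt5 and chrX:12762074-12762223 for Med14, with the GC box GGGCGG (on either strand) in capitals.
Brd2: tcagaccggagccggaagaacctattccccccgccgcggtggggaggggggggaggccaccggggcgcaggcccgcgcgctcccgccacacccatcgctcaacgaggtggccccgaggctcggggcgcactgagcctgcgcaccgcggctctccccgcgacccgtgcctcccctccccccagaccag
Supt5: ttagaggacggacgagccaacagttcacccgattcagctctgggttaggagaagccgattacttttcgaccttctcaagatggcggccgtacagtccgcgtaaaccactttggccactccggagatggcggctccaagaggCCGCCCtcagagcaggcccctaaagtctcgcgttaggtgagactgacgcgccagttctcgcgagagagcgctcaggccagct
Med14: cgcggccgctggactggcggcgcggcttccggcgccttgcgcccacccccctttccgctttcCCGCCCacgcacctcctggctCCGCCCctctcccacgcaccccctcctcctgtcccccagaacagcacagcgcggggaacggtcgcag
The printed part held 0 GC boxes for Brd2, 1 for Supt5 and 2 for Med14. Over whole windows, 32 of the members' 40 windows held GGGCGG, beside 35.7% of all 32851 windows. CCAAT was in 11 of 40 windows (37.4% of all), TATAAA in 2 (13.6% of all) and CACGTG, the E box bound by MYC, in 3 (7.15% of all), each searched on both strands. These matches describe letters only, and no factor was measured.

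In the YJ1206 cells most of the elongation machinery was higher than in the DMSO cells, while few Mediator members were. All values are shares of a library, and RNA per cell was not measured. With edgeR's quasi-likelihood test and an adjusted p under 0.05, 33 of the 42 members were called, in a comparison that called 76.1% of all 11826 genes tested. Of these, 26 members were higher (37.8% of all genes) and 7 were lower (38.3% of all genes). The median log2 fold change over the 42 members was 0.36, beside −0.02 over all genes tested. The CPM of the groups did not overlap for 35 members, as for 77.5% of all genes. Among the 29 elongation and BET members 23 rose and 3 fell, with a median of 0.60, and among the 13 Mediator members 3 rose and 4 fell, with a median of −0.08.

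The balance of the calls depended on how libraries were scaled. Scaling by library totals in place of TMM (edgeR's scaling for composition) shifted the median of all genes to −0.20. By library totals 23 members were higher (28.0% of all genes) and 16 lower (49.7% of all genes), with a median of 0.18. On log2(TPM + 1) with limma, where the median of all genes was −0.26, 18 of 41 members were higher and 14 lower with a median of 0.05. By the same TPM setting 21.7% of all genes were higher and 52.3% lower. The elongation and BET members stayed above the Mediator members under each scaling, with medians of 0.41 against −0.26 by library totals and 0.23 against −0.26 by TPM. Of the 13 Mediator members, 1 was then higher and 10 were lower by library totals and also by TPM.

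**Figure D1:**
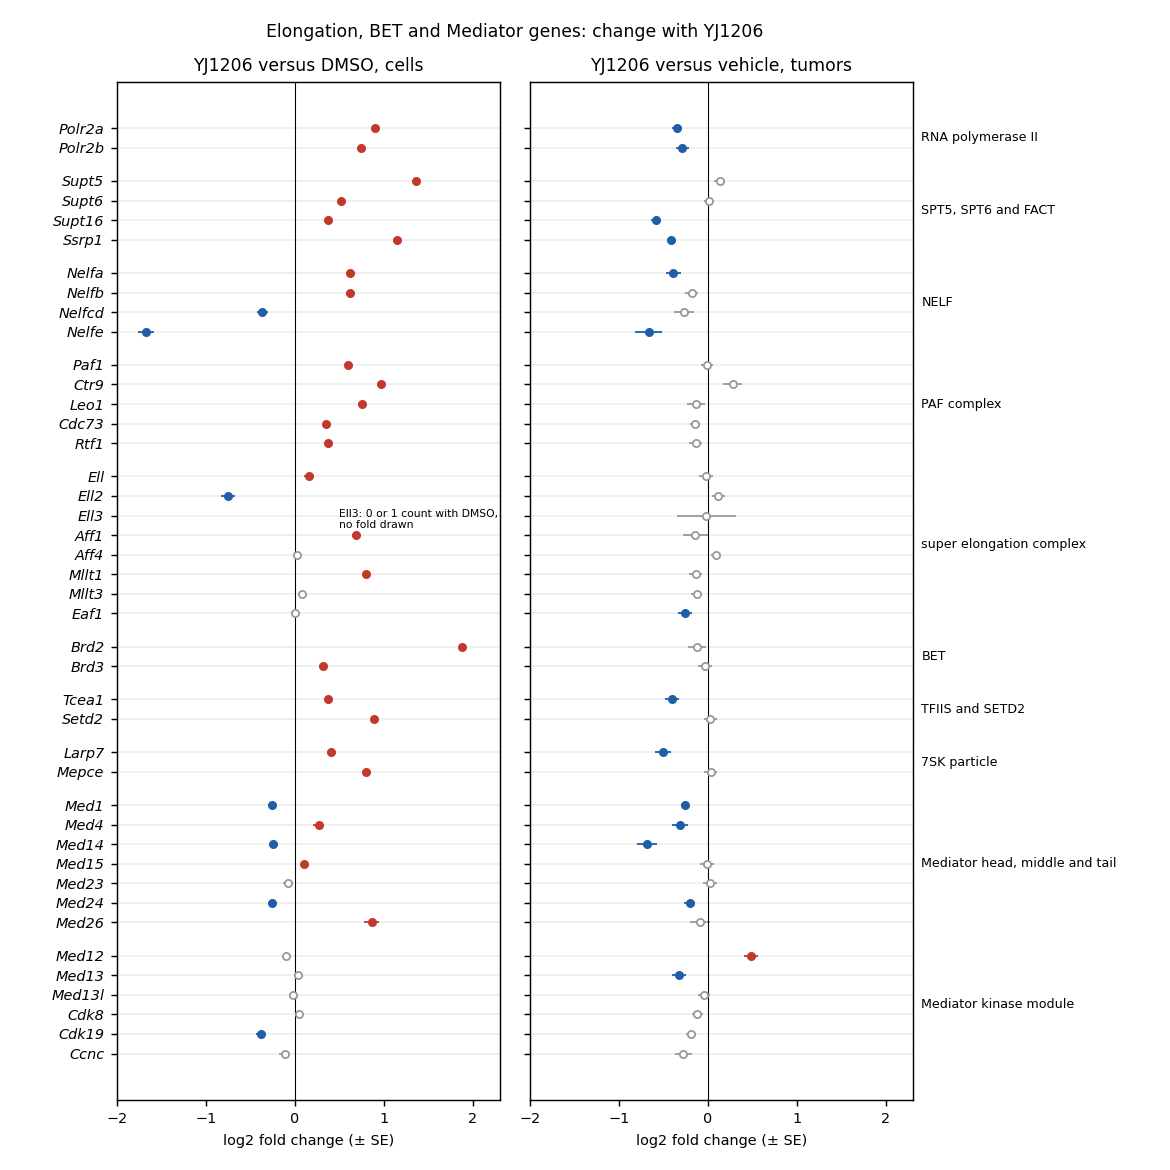
The x axes give the log2 fold change of each member with its standard error, for YJ1206 against DMSO in cells (left) and against vehicle in tumors (right), by family. Filled points passed an adjusted p of 0.05 (red higher, blue lower) and open points did not, and Ell3 in the cells is not drawn. The polymerase, SPT5, SPT6, FACT and PAF complex members lie to the right of 0 in the cells and, apart from Supt5, Supt6 and Ctr9, to the left of 0 in the tumors.

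Both polymerase subunits rose in the cells. For Polr2a, which encodes the catalytic subunit with the phosphorylated tail (chromosome 11, 69733997 to 69758637), the libraries held 346, 369 and 351 CPM (counts as a share of the TMM-scaled library total) with DMSO and 670, 666 and 660 CPM with YJ1206. The groups were far apart, a log2 fold change of 0.91 (SE 0.027, edgeR adjusted p = 4.19e-21). Polr2b, the second-largest subunit, rose by a log2 fold change of 0.74.

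DSIF and FACT subunits rose as well. Supt5 encodes the large subunit of DSIF, which acts in pausing and in elongation (chromosome 7, 28314891 to 28338746), and its libraries held 186, 184 and 183 CPM with DMSO and 466, 471 and 484 CPM with YJ1206. Every treated library was above every control library, with a log2 fold change of 1.36 (SE 0.029, edgeR adjusted p = 2.32e-24). Of its 31-base words, 9.26% also occur in an overlapping gene on the other strand, and the sources used here do not state whether counting used strand. Ssrp1, a subunit of the histone chaperone FACT, went from 471, 477 and 470 CPM to 1022, 1063 and 1052 CPM. These groups did not overlap either, with a log2 fold change of 1.15 (SE 0.024, edgeR adjusted p = 2.13e-24). Its partner Supt16 rose far less, by 0.37 on the log2 scale, so that the ratio of Ssrp1 to Supt16 TPM moved from 2.16 ± 0.043 (SD, n = 3) to 3.70 ± 0.11. The histone chaperone gene Supt6 rose by 0.51.

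NELF, the 4-subunit pausing factor, moved in opposite directions within the complex. Nelfe encodes its RNA-binding subunit (chromosome 17, 34850391 to 34856372), and its libraries held 28.7, 29.6 and 32.2 CPM with DMSO and 9.09, 8.76 and 10.6 CPM with YJ1206. All treated libraries were low, with a log2 fold change of −1.67 (SE 0.091, edgeR adjusted p = 2.26e-15). Nelfcd went from 44.6, 46.0 and 43.8 CPM to 36.4, 33.1 and 34.8 CPM, again without overlap, a log2 fold change of −0.37 (SE 0.059, edgeR adjusted p = 2.84e-06). Nelfa and Nelfb each rose by 0.62. In TPM, which is per length and so allows levels of different genes to be compared, Nelfe was the highest of the 4 subunits with DMSO at 45.1 ± 3.14 TPM (SD, n = 3) and the lowest with YJ1206 at 10.8 ± 0.943 TPM. The ratio of Nelfe to Nelfa TPM was 1.03, 1.05 and 1.18 with DMSO and 0.195, 0.212 and 0.219 with YJ1206.

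The PAF complex, which rides with the polymerase and supports histone modification, rose in all 5 members. Ctr9, its scaffold, held 237, 237 and 234 CPM with DMSO and 455, 465 and 464 CPM with YJ1206. The treated libraries were all high and close together, with a log2 fold change of 0.97 (SE 0.028, edgeR adjusted p = 1.52e-21). Leo1, Paf1, Rtf1 and Cdc73 rose by 0.75, 0.60, 0.38 and 0.35. By TPM Rtf1 and Cdc73 were not called.

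The super elongation complex was divided, with 4 members higher, 1 lower and 3 not called, and its paralogs did not move together. Among the ELL elongation factors, Ell held 40.4, 42.3 and 42.4 CPM with DMSO and 47.6, 42.9 and 49.1 CPM with YJ1206, a log2 fold change of 0.16 (SE 0.058, edgeR adjusted p = 0.0152) that turned negative by library totals and by TPM. Ell2 went from 30.2, 32.3 and 30.6 CPM to 17.7, 20.7 and 16.8 CPM. Its groups did not overlap, with a log2 fold change of −0.75 (SE 0.079, edgeR adjusted p = 1.96e-09). Ell3 was at 0, 1 and 0 counts in the DMSO libraries and at 0.930, 0.679 and 1.46 CPM with YJ1206, which is at least 6.65-fold higher over a floor of 3 counts per DMSO library (edgeR adjusted p = 1.11e-06). It overlaps Serinc4 on the same strand and shares 63.3% of its 31-base words with that gene, so its counts are uncertain. The ratio of Ell to Ell2 TPM rose from 1.70 ± 0.16 (SD, n = 3) to 3.00 ± 0.76.

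The scaffold genes of the complex differed likewise. Aff1 went from 119, 123 and 122 CPM to 190, 204 and 191 CPM, with no overlap and a log2 fold change of 0.69 (SE 0.037, edgeR adjusted p = 1.5e-15). Aff4 held 217, 206 and 205 CPM with DMSO and 209, 219 and 209 CPM with YJ1206, with overlapping groups and a log2 fold change of 0.02 (edgeR adjusted p = 0.636), which turned negative by library totals and by TPM. Aff4 thus stayed the more abundant of the pair, at a TPM ratio to Aff1 of 2.16 ± 0.37 (SD, n = 3) with DMSO and 1.41 ± 0.080 with YJ1206.

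The YEATS-domain readers of acylated histones came closer in level. Mllt1, which encodes ENL, went from 137, 137 and 134 CPM to 234, 246 and 233 CPM. The treated libraries were all higher, with a log2 fold change of 0.80 (SE 0.034, edgeR adjusted p = 9.01e-18). Mllt3, which encodes AF9, held 110, 109 and 109 CPM and then 114, 118 and 114 CPM, a log2 fold change of 0.08 (edgeR adjusted p = 0.0676) that turned negative by library totals. Per length, the ratio of Mllt1 to Mllt3 TPM was 0.809, 0.756 and 0.771 with DMSO and 1.10, 1.11 and 0.978 with YJ1206, above 1 in 2 of the 3 treated libraries. Eaf1, an ELL-associated factor, was not called.

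Brd2 had the largest well-measured change of all members. This BET gene encodes a reader of acetylated histones (chromosome 17, 34112023 to 34122634), and its libraries held 267, 278 and 279 CPM with DMSO and 976, 984 and 1059 CPM with YJ1206. The treated libraries stood 3.67-fold above the controls, with a log2 fold change of 1.87 (SE 0.030, edgeR adjusted p = 5.2e-27). Of the 31-base words of Brd2, 8.60% also occur in other annotated genes, with the most in H2-DMa, which overlaps it on the other strand. Its paralog Brd3 went from 55.3, 56.7 and 56.1 CPM to 67.6, 73.7 and 68.7 CPM. That smaller change was called as well, at a log2 fold change of 0.32 (SE 0.048, edgeR adjusted p = 9.68e-07), but not by TPM. Brd2 was already the more abundant at a TPM ratio of 6.59 ± 0.13 (SD, n = 3), and this ratio reached 19.6 ± 2.9 with YJ1206.

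The remaining elongation genes rose. Setd2, the methyltransferase of histone H3 lysine 36 in gene bodies, rose by 0.89 on the log2 scale and Tcea1, which encodes the TFIIS protein that rescues backtracked polymerase, by 0.38, where 30.0% of the words of Tcea1 also occur in a pseudogene. The 7SK particle genes Mepce, for the capping enzyme of 7SK RNA, and Larp7, for its binding protein, rose by 0.79 and 0.40. Larp7 was not called by TPM, and 20.1% of its words occur in another annotated gene.

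**Figure D2:**
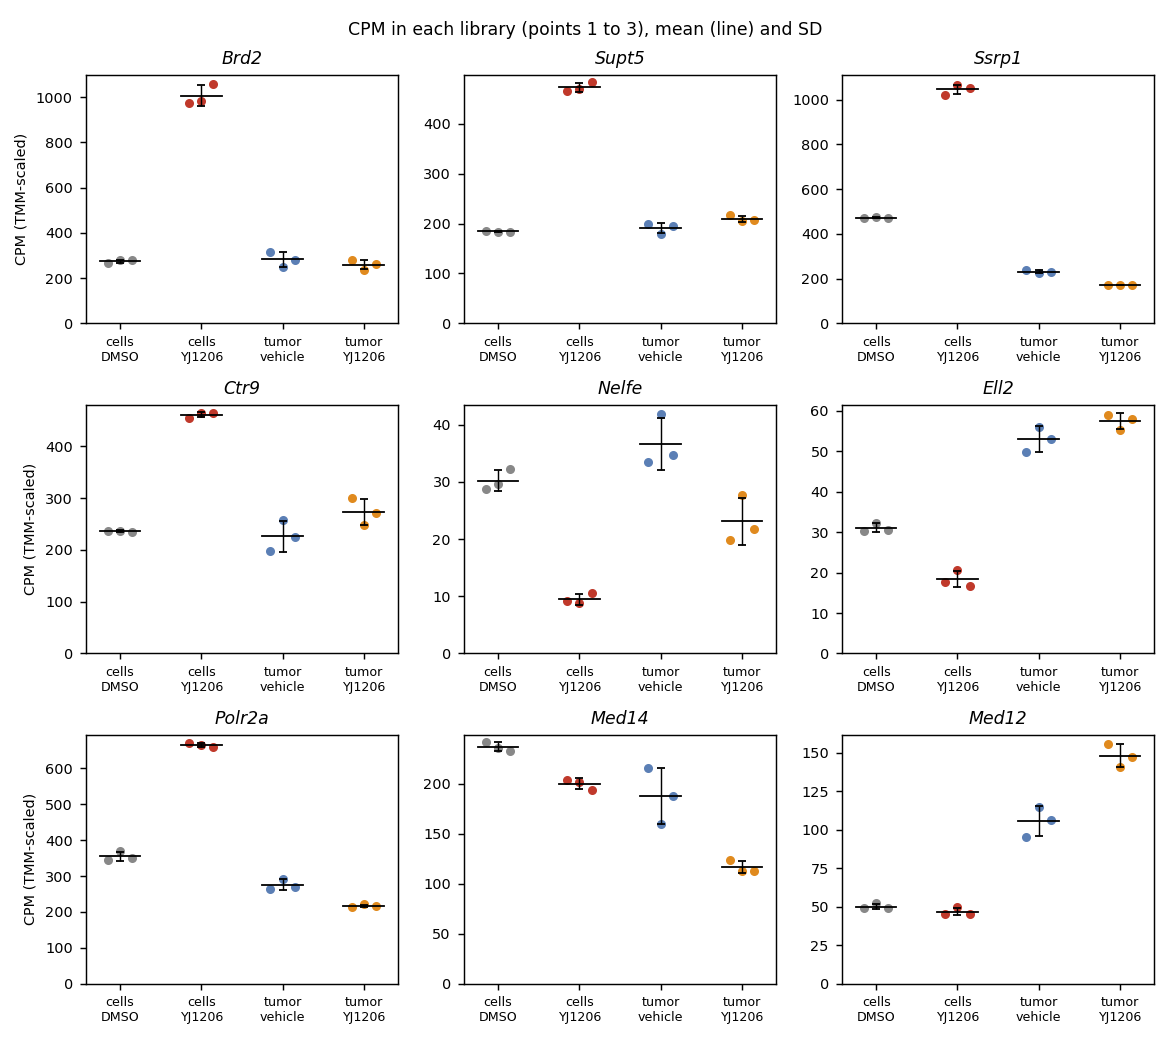
Each panel shows CPM (y axis, TMM-scaled, from 0) in the 3 libraries of each group, with the mean as a line and the SD as a bar. Brd2, Supt5, Ssrp1, Ctr9 and Polr2a are high in the YJ1206 cells alone, Nelfe is low there, and Med12 is higher in the YJ1206 than in the vehicle tumors. Cells and tumors were scaled separately.

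Mediator members were divided in the cells by TMM. Of its 7 head, middle and tail members, Med26, Med4 and Med15 were higher and Med1, Med24 and Med14 lower, while Med23 was not called. Med26, the subunit that recruits elongation factors, rose most, from 16.4, 15.8 and 15.2 CPM to 30.1, 25.3 and 30.8 CPM, without overlap (log2 fold change 0.86, SE 0.084, edgeR adjusted p = 4.57e-10). Of the 31-base words of Med26, 11.8% also occur in other annotated genes, with the most in Gm17435, which overlaps it on the other strand. Med1, the subunit contacted by nuclear receptors, went from 154, 152 and 153 CPM to 127, 132 and 124 CPM. All treated libraries were lower, with a log2 fold change of −0.26 (SE 0.037, edgeR adjusted p = 4.56e-07). Med24 and Med14 fell by 0.25 and 0.24. The higher calls of Med4, at 0.27, and Med15, at 0.11, did not hold by library totals or by TPM, where Med4 turned negative by TPM and Med15 under both scalings, and Med15 was called lower by TPM.

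In the kinase module, which docks reversibly on Mediator, 1 of 6 members was called by TMM (76.1% of all genes). All 6 were called lower by library totals (49.7% of all genes) and by TPM (52.3% of all genes). The module's medians were then −0.24 and −0.32, beside −0.20 and −0.26 over all genes. Cdk19 went from 41.5, 42.6 and 41.4 CPM to 31.7, 33.2 and 31.2 CPM. The groups were separate, with a log2 fold change of −0.38 (SE 0.059, edgeR adjusted p = 1.65e-06). Its paralog Cdk8 held 70.6, 68.8 and 68.0 CPM with DMSO and 70.3, 75.2 and 68.7 CPM with YJ1206, which overlap, at a log2 fold change of 0.05 (edgeR adjusted p = 0.358). Med13 held 226, 211 and 225 CPM and then 228, 228 and 224 CPM, a log2 fold change of 0.04 (edgeR adjusted p = 0.303). Med13l, likewise with overlapping groups, held 52.0, 56.3 and 54.3 CPM and then 53.9, 54.9 and 51.9 CPM, a log2 fold change of −0.02 (edgeR adjusted p = 0.776). Med12 and the cyclin gene Ccnc had log2 fold changes of −0.09 and −0.11 and were not called. Cdk8 and Med13 changed sign between these scalings. The TPM ratio of Cdk8 to Cdk19 was 3.80 ± 0.030 (SD, n = 3) with DMSO and 4.77 ± 0.28 with YJ1206, and that of Med13 to Med13l was 3.53 ± 0.28 and 3.65 ± 0.036.

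Other genes of the same pathway, from lists beside the members, moved in both directions in the cells. Of 11 other polymerase subunits 7 rose and 1 fell, of 19 other Mediator subunits tested 9 rose and 4 fell, and of 24 other elongation genes tested 17 rose and 6 fell. Over all genes 37.8% rose and 38.3% fell. The median log2 fold changes of the lists were 0.22, 0.06 and 0.27. The gap between elongation and Mediator genes was thus smaller in these lists than among the members. Hexim1, which encodes the inhibitor of P-TEFb in the 7SK particle, went from 56.0, 56.6 and 57.1 CPM to 307, 312 and 330 CPM, a log2 fold change of 2.48 (SE 0.038, edgeR adjusted p = 2.3e-27). Its paralog Hexim2 rose by 2.20. The TFIIS gene Tcea2 and the tail phosphatase gene Ssu72 fell by 2.09 and 1.60 on the log2 scale. Within Mediator, Med10 rose by 1.00 and Med9 fell by 1.06, both beyond any member subunit.

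**Figure D3:**
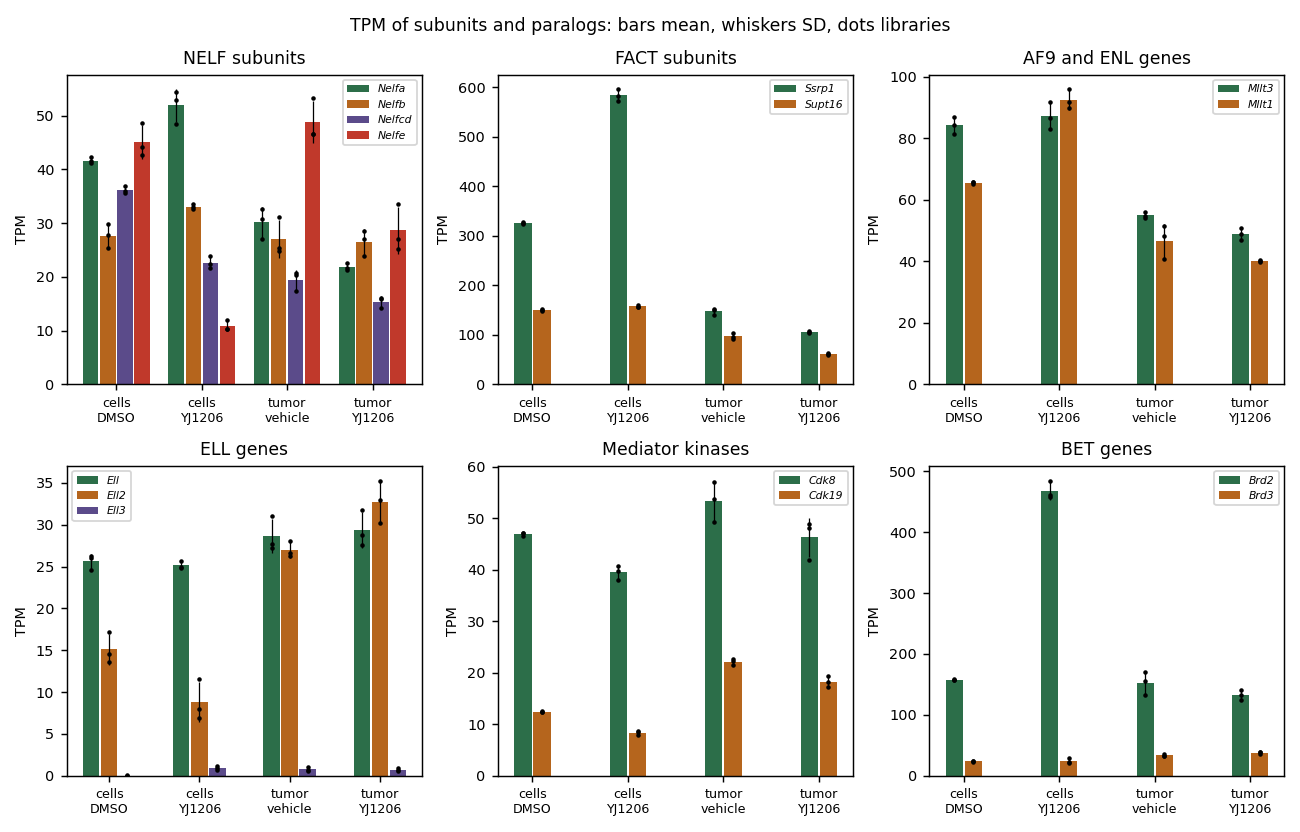
Bars give mean TPM per group, whiskers the SD and dots the 3 libraries, for subunits of a complex or paralogs, with all y axes from 0. Nelfe is the tallest of the NELF bars with DMSO and the shortest with YJ1206 in cells, and Brd2 reaches 469 TPM in YJ1206 cells.

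In the tumors most called members were lower. With edgeR, 15 of the 42 members were called, against 26.8% of all 15558 genes tested, of which 1 was higher (11.9% of all genes) and 14 were lower (14.9% of all genes). The median log2 fold change over the members was −0.14, beside 0.01 over all genes. Groups did not overlap for 22 members, 20 of them lower, beside 44.6% of all genes. With libraries 1 and 2 of each group alone, 0 members passed (smallest adjusted p = 0.134) and 1 gene of all passed, 9 members had an unadjusted p under 0.05, and all 15 kept their direction. Without vehicle library 3, YJ1206 library 3 or YJ1206 library 2, the number of members called was 7, 7 and 9 (12.2%, 11.8% and 17.4% of all genes). Without vehicle library 2, which is low in the muscle markers, it was 17 (36.2% of all genes). The skeletal muscle markers given above differ between the groups as well (5 of 6 lower), and the summed TPM of 5 leukocyte markers was 132, 346 and 220 with vehicle and 396, 426 and 419 with YJ1206 (0 of 5 called). Fibroblast markers summed to 729, 220 and 527 TPM and then 159, 360 and 288 TPM (0 of 6 called), and 2 of 6 macrophage, 1 of 3 T cell and 1 of 5 endothelial markers tested were higher. Their part in the members' values was not tested, and in bulk tumors fewer cells of a type and less RNA per cell cannot be told apart.

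Med14, a scaffold of Mediator (chromosome X, 12675369 to 12762073), changed the most among members, with 216, 160 and 188 CPM with vehicle and 124, 113 and 113 CPM with YJ1206. The vehicle libraries were spread out but did not overlap the treated ones, and the log2 fold change was −0.69 (SE 0.11, edgeR adjusted p = 0.00485). Nelfe went from 33.4, 41.8 and 34.6 CPM to 19.8, 27.7 and 21.7 CPM, lower as in the cells. Its log2 fold change was −0.67 (SE 0.15, edgeR adjusted p = 0.0157), a call lost without library 3 of either group. Among the NELF subunits Nelfe had the highest TPM with vehicle, at 48.8 ± 3.89 (SD, n = 3), whereas with YJ1206 its 28.6 ± 4.42 TPM did not differ beyond the spread from the 26.4 ± 2.39 TPM of Nelfb, with a ratio over 1 in 2 of 3 libraries.

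FACT, the polymerase and several smaller factors were lower too. Supt16 went from 288, 268 and 272 CPM to 186, 186 and 181 CPM. The groups were well apart, with the smallest adjusted p among members and a log2 fold change of −0.58 (SE 0.052, edgeR adjusted p = 0.00101), although 20.0% of the words of Supt16 are shared with Rpgrip1 on the other strand. Ssrp1 went from 236, 223 and 230 CPM to 172, 173 and 171 CPM, well apart, with a log2 fold change of −0.41 (SE 0.049, edgeR adjusted p = 0.00213). Larp7 went from 47.1, 49.0 and 40.1 CPM to 31.6, 33.3 and 31.4 CPM, with no overlap and a log2 fold change of −0.50 (SE 0.091, edgeR adjusted p = 0.00771). Polr2a held 265, 293 and 270 CPM with vehicle and 214, 221 and 216 CPM with YJ1206, again separate, with a log2 fold change of −0.35 (SE 0.057, edgeR adjusted p = 0.0054). Tcea1, Nelfa, Med13, Med4, Polr2b, Eaf1, Med1 and Med24 fell by between 0.21 and 0.40 on the log2 scale.

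The single member that rose in the tumors was Med12, which activates the CDK8 and CDK19 kinases (chromosome X, 101274030 to 101297465). It held 95.6, 115 and 106 CPM with vehicle and 156, 141 and 147 CPM with YJ1206. No treated library overlapped the controls, and the log2 fold change was 0.48 (SE 0.081, edgeR adjusted p = 0.00581), a call that held when any 1 tumor library was left out. This was also true of Larp7, Med14, Polr2a, Ssrp1 and Supt16, and of no other member. Med12 shares 9.04% of its words with an overlapping annotated gene.

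Brd2, Supt5 and Ctr9, which rose in the cells, were not called in the tumors. Brd2 held 317, 251 and 280 CPM with vehicle and 278, 237 and 263 CPM with YJ1206, with overlapping groups and a log2 fold change of −0.12 (edgeR adjusted p = 0.394). Supt5 held 200, 180 and 195 CPM and then 217, 205 and 207 CPM, just without overlap, at 0.13 (edgeR adjusted p = 0.148). For Ctr9 the values were 197, 257 and 224 CPM and 300, 249 and 272 CPM, overlapping, at 0.28 (edgeR adjusted p = 0.103). None of the 5 PAF complex members was called. Wdr61, a PAF complex gene outside the members, was called higher, at 0.31 (SE 0.077, edgeR adjusted p = 0.0234). It was also higher in the cells, at 0.44 (SE 0.052, edgeR adjusted p = 1.68e-08).

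The paralogs moved little in the tumors. Ell held 49.7, 49.5 and 49.2 CPM with vehicle and 51.9, 44.1 and 50.3 CPM with YJ1206, Ell2 held 49.7, 56.1 and 53.0 CPM and then 59.0, 55.3 and 58.0 CPM, and Ell3 held 0.721, 1.31 and 0.776 CPM and then 0.874, 1.16 and 0.773 CPM. All of these ELL groups overlap. Aff1 held 244, 365 and 288 CPM and then 287, 256 and 270 CPM, and Aff4 held 335, 352 and 342 CPM and then 384, 351 and 362 CPM, also with overlap. Mllt1 held 111, 91.3 and 105 CPM and then 92.2, 92.9 and 92.8 CPM, and Mllt3 held 89.2, 94.2 and 90.9 CPM and then 86.2, 85.6 and 79.3 CPM, the latter without overlap but not called (log2 fold change −0.13, edgeR adjusted p = 0.155). The TPM ratio of Mllt1 to Mllt3 was under 1 in all 6 tumor libraries.

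Of the other pairs, Brd3 held 79.2, 68.0 and 76.3 CPM with vehicle and 76.0, 70.5 and 71.9 CPM with YJ1206, with overlap, and the TPM ratio of Brd2 to Brd3 was 4.54 ± 0.34 and 3.48 ± 0.062 (SD, n = 3). Med13 went from 335, 414 and 364 CPM to 298, 298 and 292 CPM, separate from the controls, with a log2 fold change of −0.33 (SE 0.081, edgeR adjusted p = 0.0229). Med13l overlapped at 134, 126 and 132 CPM against 136, 119 and 124 CPM. Cdk8 held 86.8, 78.1 and 84.4 CPM and then 78.2, 72.9 and 78.5 CPM, which overlap. Cdk19 held 73.3, 74.6 and 72.5 CPM and then 63.4, 67.7 and 62.0 CPM, which do not, at a log2 fold change of −0.19 (SE 0.060, edgeR adjusted p = 0.0529). Both kinase genes therefore stayed on the uncalled side, Cdk19 narrowly.

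Other genes of the pathway were likewise mostly uncalled or lower in the tumors. Of 11 other polymerase subunits 0 rose and 2 fell by edgeR, of 20 other Mediator subunits 1 rose and 3 fell, and of 25 other elongation genes tested 2 rose and 10 fell. Over all genes 11.9% rose and 14.9% fell, so the polymerase and Mediator lists stood near these shares. Hexim1 held 58.0, 45.6 and 50.6 CPM with vehicle and 73.3, 56.2 and 63.6 CPM with YJ1206, with overlap, at a log2 fold change of 0.33 (edgeR adjusted p = 0.0938). Hexim2 rose by 0.69 and Ssu72 fell by 0.44, each in its direction in the cells.

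Across the experiments, 8 members were called higher in the cells and lower in the tumors, namely Polr2a, Polr2b, Supt16, Ssrp1, Nelfa, Tcea1, Larp7 and Med4, beside 7.26% of the 11235 genes tested in both. Another 4 members, Nelfe, Med1, Med14 and Med24, were lower in both (8.99% of genes), and 0 were higher in both (6.51% of genes). A call in the cells alone was made for 21 members (50.6% of genes) and in the tumors alone for 3 (Eaf1, Med12 and Med13, 5.87% of genes), which left 6 called in neither (17.2% of genes). The cell call of Med4 was lost by library totals and by TPM and its tumor call in 7 of 14 alternatives, and the cell call of Med24 was lost by TPM and its tumor call in 13 of 14 alternatives. Of the 3 called in the tumors alone, Eaf1 lost its call in 8 of 14 alternatives, Med13 in 5 and Med12 in 1. The experiments share no libraries.

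The difference of the treatment effect, tumors minus cells, was tested as an interaction over all 12 libraries. It was called for 31 of the 42 members, against 46.8% of 15328 genes, with 28 negative (26.0% of all genes) and 3 positive (20.9% of all genes). The same 31 members were called without library 3 of both tumor groups, beside 38.8% of all genes. This fit uses a common estimate of the spread for cells and tumors, and the cell libraries vary little. The tumor comparison alone called 0 members with the same tumor libraries. The 31 calls therefore do not show that the tumor effects hold without library 3. By library totals 8 differences were positive (29.8% of all genes) and 23 negative (18.7% of all genes), and 26 of the 31 were shared with the TMM result. The median difference of all genes was then 0.20, against −0.01 by TMM. The 5 calls lost were those of Eaf1, Med13, Med14, Mllt3 and Brd3, and the 5 gained were positive differences of Aff4, Med1, Med23, Med24 and Cdk19. Brd2 differed by −2.03 (SE 0.11, edgeR adjusted p = 2.2e-08), Ssrp1 by −1.59, Polr2a by −1.28 and Supt5 by −1.26 on the log2 scale. For Ell3, at 0 or 1 count with DMSO, the fitted difference of −5.56 depends on the prior count and gives no size. The positive differences were those of Nelfe at 0.98 (SE 0.19, edgeR adjusted p = 0.0008), which fell less in the tumors, Ell2 at 0.84 and Med12 at 0.55. The other 11 members ranged from −0.21 to 0.16 and were not called, 8 of the 13 Mediator members among them.

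The length of transcript behind the counts moved for a few members. Counts divided by TPM give a length that depends on which isoforms the estimated counts were assigned to, and its ratio to the control mean was centred on the median of all genes. This description was added after the data were seen, with the genes chosen by their values. In the cells Med24 was at 0.09, 0.04 and −0.12 on the log2 scale with DMSO and −0.38, −0.56 and −0.51 with YJ1206, a length ratio of 0.72. Med14 was at −0.02, 0.00 and 0.02 and then −0.31, −0.40 and −0.36, a ratio of 0.78. These shifts of −0.48 and −0.35, with no overlap of groups (as for 60.6% of genes), lie below the range of −0.23 to 0.16 that holds the middle 90% of 10073 genes. Mllt3 (−0.26) lay below it too, without overlap. In the tumors the shifts of Brd3 (−0.27), Med23 (−0.26), Med24 (−0.24), Ell2 (−0.22) and Nelfb (−0.21) lay below the corresponding range of −0.13 to 0.10, each without overlap (as for 49.1% of genes). For these genes a change in counts and a change in TPM differ, as for Med24, which was called lower in the cells by counts but not by TPM.

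**Figure D4:**
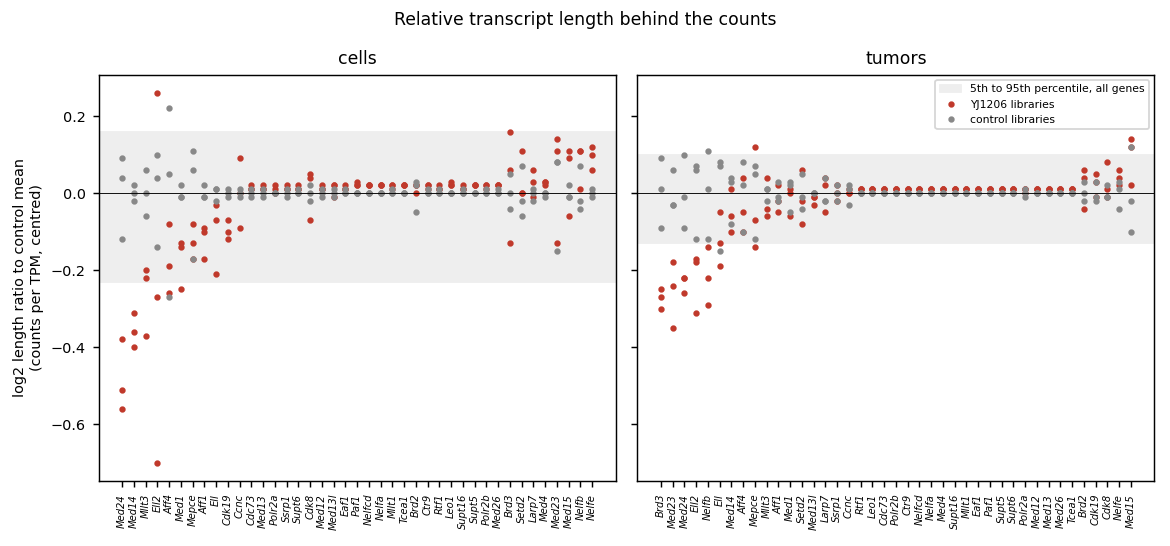
The y axis gives the log2 ratio of counts per TPM to the control mean, centred on all genes, for each member (x axis, ordered by shift), with control libraries in grey, YJ1206 libraries in red and the middle 90% of genes shaded. Most members sit near 0, and Med24 and Med14 in cells and Brd3 in tumors have all 3 treated libraries below the controls.

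The members' genes span from 5.3 to 263.4 kb with a median of 39.2 kb, and 16 of them reach 50 kb or more. In the cells the 26 shorter members had a median log2 fold change of 0.56 and the 16 longer members 0.09, beside −0.00 and −0.05 for shorter and longer genes of all 11822 with a span. Across the 42 members, which share the same libraries, Spearman's rho of span and log2 fold change was −0.29, beside −0.05 over all genes. In the tumors rho was 0.12 over members and −0.04 over all genes. The shorter Brd2, Ssrp1 and Supt5, at 10.6, 9.9 and 23.9 kb, were among the members that rose the most, but so short a gene as Nelfe, at 6.0 kb, fell the most.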

How the data were processed

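RNA was sequenced from 12 mouse libraries, in 4 groups of 3. For each experiment the deposited values are estimated counts (fractional values occur, with no scaling between libraries) and TPM values, which the authors scaled for transcript length and to a fixed sum per library. Per the submitters' processing notes, kallisto and GRCm38 (mm10) were used; versions and annotation are not given in the sources used here, and all 42 members' versioned identifiers are those of GENCODE vM21, from which spans and overlaps were taken. The labels describe a KAPA RNA Hyper library with RiboErase depletion of ribosomal RNA.

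Tests had been planned for counts, so estimated counts were rounded beforehand. Each experiment was fitted as a whole table by the quasi-likelihood test of edgeR 4.0.16 under R 4.3.3, after filterByExpr and TMM scaling, with Benjamini-Hochberg adjustment over all genes tested and a threshold of 0.05, and all 42 members passed the filter in both. CPM values were scaled with TMM. The difference between tumors and cells was an interaction term over genes in both tables. The biological coefficient of variation was 0.0322 in the cells, 0.139 in the tumors and 0.104 in the fit of the interaction. At these depths a floor of 3 counts was 0.153 CPM in the DMSO libraries. Scripts were tested on simulated data.

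Alternatives were library totals, DESeq2 1.42.0, no filter on low counts, limma 3.58.1 on deposited TPM (pseudocount 1 or 0.1, mean TPM of at least 1 or no filter), leaving out each library, a replicate block, and tumor libraries 1 and 2 alone.

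The members and all gene lists were chosen with earlier results of these data known, so no list was tested. Values in every library are given for the 5 largest called changes in each direction, the 5 largest called interactions of each sign and the paralog pairs. Other members given in full (Med26 in the cells), Hexim1 and the transcript length ratios (at least 20 counts in each library) were chosen after their values were seen.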

Additional observations from a re-analysis of the deposited data

Results flagged for a closer look

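For 31 members the effect of YJ1206 differed between tumors and cells by edgeR's interaction test itself (adjusted p under 0.05 over all 15328 genes, of which 46.8% were called). The difference is given as the log2 effect in tumors minus that in cells. Among polymerase, SPT and FACT genes it was −1.28 for Polr2a, −1.06 for Polr2b, −1.26 for Supt5, −0.53 for Supt6, −0.99 for Supt16 and −1.59 for Ssrp1. Among NELF genes it was −1.04 for Nelfa and −0.84 for Nelfb but 0.98 for Nelfe. In the PAF complex it was −0.64 for Paf1, −0.72 for Ctr9, −0.92 for Leo1, −0.53 for Cdc73 and −0.55 for Rtf1. In the super elongation complex it was 0.84 for Ell2, −5.56 for Ell3 (a fitted value that depends on the prior count), −0.86 for Aff1, −0.97 for Mllt1, −0.23 for Mllt3 and −0.29 for Eaf1. It was −2.03 for Brd2, −0.38 for Brd3, −0.81 for Tcea1, −0.89 for Setd2, −0.94 for Larp7 and −0.79 for Mepce. In Mediator it was −0.61 for Med4, −0.47 for Med14, −0.98 for Med26, −0.39 for Med13 and 0.55 for Med12.

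The cells and tumors also differ in the RNA their labels name, in dose, duration and route, and in the cells of the host, none of which can be told apart from the material here.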

How the results depend on the processing

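In the cells, the 33 calls became 39 by library totals, 32 by DESeq2, 32 without a filter on low counts, 33 with the replicate block, 32 by TPM (pseudocount 1 or 0.1), 33 by TPM without a filter and 31 to 33 when a library was left out. Lower members numbered 16 by library totals and 14 in each TPM setting, against 7. Of all genes, 49.7% were lower by library totals, against 38.3%, and 52.3%, 52.0% and 30.1% by log2(TPM + 1), log2(TPM + 0.1) and unfiltered TPM. The median over members was 0.18 by library totals and 0.05, 0.05 and 0.06 in these 3 TPM settings. The direction turned by library totals for Ell (−0.026), Aff4 (−0.17), Mllt3 (−0.11), Med15 (−0.079), Med13 (−0.15) and Cdk8 (−0.14). In the 3 TPM settings, in the same order, it turned for Ell (−0.025, −0.026, −0.025), Aff4 (−0.094, −0.095, −0.094), Med4 (−0.052, −0.053, −0.052), Med15 (−0.22 in each), Med13 (−0.26 in each) and Cdk8 (−0.24, −0.25, −0.24). When a library was left out Aff4 ranged from −0.0013 to 0.042 and Med13l from −0.048 to 0.0095. Beyond the shift of the median of all genes under each scaling, the cause was not tested.

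In the tumors, calls ranged from 7 to 17 when a library was left out (higher 1 to 2, lower 6 to 15), with 11.8% to 36.2% of all genes called. They were 12 with the replicate block (22.3% of all genes), which lost Eaf1, Med4 and Med24 and has fewer residual degrees of freedom. With libraries 1 and 2 alone 0 were called, 0 higher and 0 lower, with fewer libraries. By log2(TPM + 0.1) 2 were higher, and the median was −0.20, −0.21 and −0.20 in the 3 TPM settings. Members that turned were not called in any case: Ell by TPM (0.034, 0.035, 0.034), Brd3 by TPM (0.17, 0.18, 0.17), Ell3 with the replicate block (0.015), and, over left-out libraries, Ell (−0.071 to 0.044), Ell3 (−0.21 to 0.34), Aff1 (−0.27 to 0.028) and Brd3 (−0.095 to 0.014). The difference between tumors and cells was called for 30 to 32 members when a library was left out and for 31 with the replicate block. By library totals it was called for 31 members, of which 8 were positive (29.8% of all genes). Same-numbered libraries did not deviate together (correlations of −0.030 to 0.003), so replicate numbers were not taken to pair libraries.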
